A study of Mus musculus with 19 samples.

Results

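Among the genes named Zfp followed by digits alone, which encode zinc finger proteins, 84 had a SPEN peak near the start site in testicular or spermatocyte-enriched cells of the mouse. They were chosen on the peak lists themselves. A gene was kept when a peak of any of the 16 SPEN libraries lay within 5000 bp of its start site and shared no base with any peak of the 3 background libraries. Genes on chromosomes 1 to 19 were eligible, and a 3 Mb stretch of distal chromosome 4 was left out. The RefSeq gene table holds 349 Zfp genes in these regions, and over all genes 5161 met the same rule. The 84 genes carried 105 such peaks. The authors' annotation describes all 84 as zinc finger proteins. Being near a peak, and how many genes were, is therefore how the genes were picked and is given below as a description, with no test.

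Most mammalian genes of this kind encode proteins with arrays of C2H2 zinc fingers, each finger reading a few bases of DNA. Many of them also carry a KRAB domain, which recruits TRIM28 (KAP1). TRIM28 in turn brings SETDB1, HP1 proteins and histone deacetylases, and this assembly silences endogenous retroviruses and keeps imprinted loci methylated. Their genes have multiplied by local duplication and lie in clusters, so that neighbours are often similar in sequence. SPEN, a very large protein with RNA recognition motifs, brings histone deacetylase corepressors to its targets and is known from Notch signalling through RBPJ and from silencing of the X chromosome by Xist RNA.

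Chromatin was precipitated from testes of adult male FVB/N mice of 10 to 16 weeks, with rabbit antibodies to an internal or an N-terminal stretch of SPEN, to ask how heat shock affects where SPEN sits. Cells were kept at 32 °C or brought to 38 °C or 43 °C by adding pre-heated medium. With the internal antibody, testicular cells were untreated or heated to 38 °C or 43 °C, in each case for 15 min, for 30 min, or for 30 min followed by 2 or 4 h of recovery. That antibody was also used on a cell population enriched up to 80% in spermatocytes, untreated or heated to 43 °C for 30 min with no, 2 or 4 h of recovery. The N-terminal antibody was used on testicular cells untreated, at 38 °C for 15 min, and at 38 °C for 30 min with 2 h of recovery. Background libraries were rabbit IgG and input DNA of testicular cells and input DNA of spermatocytes. Each condition had 1 library that combined 5 to 6 precipitations, so no value has a replicate error, and every comparison is between libraries and not between conditions. Testicular cells are a mixture, and the peak lists cannot tell which cell type a peak comes from.

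The lists were of very unequal length, and the files give no read totals. The untreated testicular library of the internal antibody held 29315 peaks, of which 27370 shared no base with a background peak. The spermatocyte library at 4 h after 43 °C held 9707 and 8164. The other 14 SPEN lists held 1682 to 3590 peaks, of which 333 to 1442 were free of background. Deeper sequencing alone would lengthen a list, and the part of depth in the counts below was not tested.

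To show what lay under the peaks, 5 start-site windows from RefSeq (GRCm38.p6, the same assembly as mm10) are printed. They run from 250 bases before to 50 after the start site, 5′ to 3′ on the gene's strand, and capitals mark the bases under the peak of the untreated testicular library. Zfp783 and Zfp936 are members with high scores whose whole window lay under the peak. Zfp37, which in mice is expressed in male germ cells, and Zfp213 show a peak that covers only part of the window. Zfp212 shows a peak that starts just before the start site and runs into the gene. Of 69 members with a window in the sequence table, 23 had a member peak that shared a base with it, so the printed windows are not the usual case. The windows are chr6:47942925-47943224 (plus strand) for Zfp783, chr7:43177340-43177639 (plus) for Zfp936, chr4:62208153-62208452 (minus) for Zfp37, chr17:23564177-23564476 (minus) for Zfp213 and chr6:47920318-47920617 (plus) for Zfp212.
Zfp783: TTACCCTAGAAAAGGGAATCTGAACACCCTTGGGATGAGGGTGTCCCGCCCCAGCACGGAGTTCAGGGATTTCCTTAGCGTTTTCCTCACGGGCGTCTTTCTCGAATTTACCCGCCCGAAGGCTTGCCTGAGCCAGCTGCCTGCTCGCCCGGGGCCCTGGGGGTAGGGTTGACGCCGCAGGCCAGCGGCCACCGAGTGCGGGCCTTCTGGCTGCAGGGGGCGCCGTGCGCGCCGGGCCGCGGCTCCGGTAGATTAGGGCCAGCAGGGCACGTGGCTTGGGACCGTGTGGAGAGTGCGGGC
Zfp936: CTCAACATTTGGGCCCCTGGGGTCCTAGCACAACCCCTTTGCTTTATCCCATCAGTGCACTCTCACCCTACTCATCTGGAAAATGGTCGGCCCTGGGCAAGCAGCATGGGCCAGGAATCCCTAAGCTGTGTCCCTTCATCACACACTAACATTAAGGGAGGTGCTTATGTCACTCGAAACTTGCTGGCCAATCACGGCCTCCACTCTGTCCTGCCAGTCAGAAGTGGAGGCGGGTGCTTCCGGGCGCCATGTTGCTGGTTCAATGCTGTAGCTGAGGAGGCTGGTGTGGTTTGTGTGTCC
Zfp37: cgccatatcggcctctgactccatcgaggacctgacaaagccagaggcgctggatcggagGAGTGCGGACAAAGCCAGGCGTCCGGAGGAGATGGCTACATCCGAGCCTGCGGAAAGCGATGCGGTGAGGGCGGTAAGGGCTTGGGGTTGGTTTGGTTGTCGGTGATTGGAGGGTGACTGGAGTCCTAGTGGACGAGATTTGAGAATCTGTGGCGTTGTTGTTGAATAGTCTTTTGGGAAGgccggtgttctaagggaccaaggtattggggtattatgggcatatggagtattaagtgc
Zfp213: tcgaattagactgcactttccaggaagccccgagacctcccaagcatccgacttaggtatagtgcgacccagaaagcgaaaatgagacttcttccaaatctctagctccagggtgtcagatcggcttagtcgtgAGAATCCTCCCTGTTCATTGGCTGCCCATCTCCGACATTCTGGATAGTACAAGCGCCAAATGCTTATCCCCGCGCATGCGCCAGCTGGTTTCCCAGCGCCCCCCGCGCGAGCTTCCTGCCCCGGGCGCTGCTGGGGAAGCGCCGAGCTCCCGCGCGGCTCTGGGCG
Zfp212: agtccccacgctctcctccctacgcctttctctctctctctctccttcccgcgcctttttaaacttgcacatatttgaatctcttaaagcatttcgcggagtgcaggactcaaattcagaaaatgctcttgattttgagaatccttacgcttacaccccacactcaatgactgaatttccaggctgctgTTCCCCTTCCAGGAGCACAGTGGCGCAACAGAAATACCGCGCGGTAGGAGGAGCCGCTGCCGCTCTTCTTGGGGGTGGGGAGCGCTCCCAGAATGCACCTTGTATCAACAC

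These windows differed widely in base composition. Zfp783 had 26 CG dinucleotides and a GC content of 67.0%, whereas Zfp936 had 6 and 55.7%. Zfp37 had 17 CG dinucleotides, 11 of them under the peak, Zfp213 had 24 with 17 under the peak, and Zfp212 had 14 with 7 under the peak. The CCAAT box, counted on both strands, occurred 1 time in the Zfp936 window, 2 times in that of Zfp37 and 1 time in that of Zfp213, and in neither of the others. The GC box GGGCGG occurred 2 times in the Zfp783 window and 1 time in that of Zfp37.

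Zfp genes held a peak about as often as protein-coding genes in general. Of the 343 Zfp genes that are protein-coding in the gene table, 83 were members (24.2%, exact 95% interval 19.8 to 29.1, which like all intervals below covers counting error only), against 23.6% of 20022 protein-coding genes. The remaining member, Zfp783, has no curated coding transcript in that table. In the untreated testicular library 77 of 343 had a peak (22.4%, 18.1 to 27.2), beside 21.1% of all protein-coding genes. In spermatocytes at 4 h after 43 °C there were 12 of 343 (3.50%, 1.82 to 6.03), beside 3.56%. None of the 343 had a background-free peak within 5 kb in any of the other 14 libraries, where 1.07% of all protein-coding genes did. A count of 0 of 343 has an exact interval that reaches 1.07%, with 0.875% as the share that 3 counts would give. The share was thus near the background in the first 3 of these comparisons, which is not a result about the family, and in the other 14 lists the count was too low to tell it from the background. Another 2 Zfp genes, Zfp267 and Zfp974, held peaks with scores of 242.16 and 52.96 under the older names D3Ertd254e and 1700049G17Rik and were not counted by the rule.

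**Figure D1:**
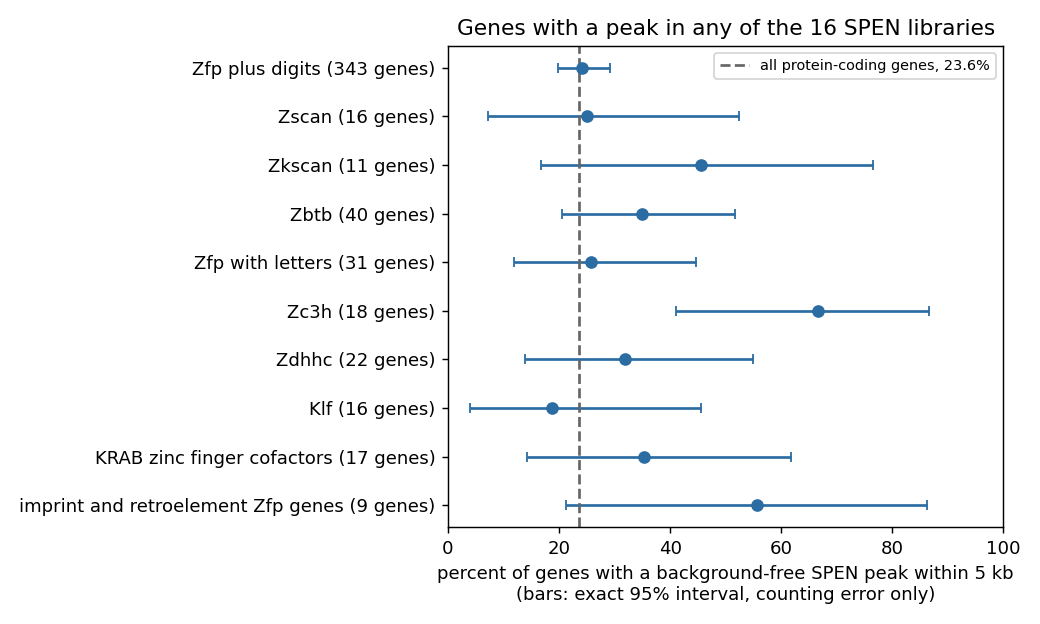
Percent of genes (horizontal axis) with a background-free SPEN peak within 5 kb in any of the 16 libraries, for Zfp genes and for related lists, with exact 95% intervals as bars and 23.6% of all protein-coding genes as the dashed line. The Zfp genes, at 24.2%, sit on the line, and the interval of Zc3h genes starts at 41.0%.

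Other zinc finger families, listed by their names, varied around that level. Peaks were held by 4 of 16 Zscan genes, 5 of 11 Zkscan genes, 14 of 40 Zbtb genes, 3 of 16 Klf genes and 8 of 31 genes whose Zfp name carries letters. Genes with names in Zc3h, most but not all of the CCCH family whose fingers mainly bind RNA, stood highest with 12 of 18 (66.7%, 41.0 to 86.7). Their peaks reached a score of 218.25 at Zc3h15 and 161.77 at Zc3h6. The Zdhhc genes, which are palmitoyltransferases and carry another kind of finger, had 7 of 22. None of 2 Zik and Zim genes and 1 gene of a Znf-like name had a peak.

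Of 17 genes for the machinery that KRAB zinc finger proteins use, 6 had a peak (35.3%, 14.2 to 61.7), and the interval holds the 23.6% of all protein-coding genes. Setdb1, the histone H3 lysine methyltransferase that TRIM28 recruits, had a score of 69.58 at +1164 bp, in an exon. Atf7ip, the partner that stabilises SETDB1, had 53.39 at -2372 bp. The HP1 genes Cbx3 and Cbx5 had 66.71 and 53.85 close to their start sites. The DNA methyltransferase gene Dnmt3b had 70.81 and the deacetylase gene Hdac2 had 63.53. Trim28 itself had no background-free peak within 5 kb.

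Of 9 zinc finger genes known for imprints or retroelements, 5 were members (55.6%, 21.2 to 86.3), and this interval holds the 23.6% as well. Zfp57, whose protein keeps methylation at imprinting control regions, had a peak of score 107.39 at chr17:37002648-37002921, in its promoter. Zfp445, which shares this work, had 108.47 at +4116 bp in its second exon (chr9:122861735-122862045). Zfp708, whose protein binds a class of retroelements, had 98.35 in its first intron. Zfp809, which in embryonic stem cells silences retroviruses through TRIM28, had a score of 51.16, close to the lowest in the list. Zfp568, which restrains a placental transcript of Igf2, had a peak in the spermatocyte library and none in the untreated one. The others listed, Zfp42, Zfp819, Zfp932 and Zfp961, had none.

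Members came from 2 of the 16 libraries. The untreated testicular library of the internal antibody held 93 peaks at 78 members, and 72 of these members had a peak there alone. Spermatocytes at 4 h after 43 °C held 12 peaks at 12 members, and 6 members had a peak there alone. The remaining 6 members had a peak in both. These 2 lists were the longest, so the libraries in which members appear follow list length.

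The peak score, as the authors deposited it, was read within a list only. In the untreated list member peaks had a median of 67.4, with quartiles of 58.1 and 89.0 and a range of 50.16 to 281.26. All 5066 peaks within 5 kb of protein-coding genes in that list had a median of 64.6. A score of at least 100 was reached by 15 of 93 member peaks (16.1%, 9.32 to 25.2), beside 14.2% of all. In spermatocytes at 4 h the 12 member peaks had a median of 54.8 and the 749 peaks of all protein-coding genes one of 58.0. Member peaks were 133 to 729 bp wide in the untreated list, with a median of 218 bp beside 219 bp for all. By score and width they were ordinary among their list's peaks within 5 kb of protein-coding genes.

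**Figure D2:**
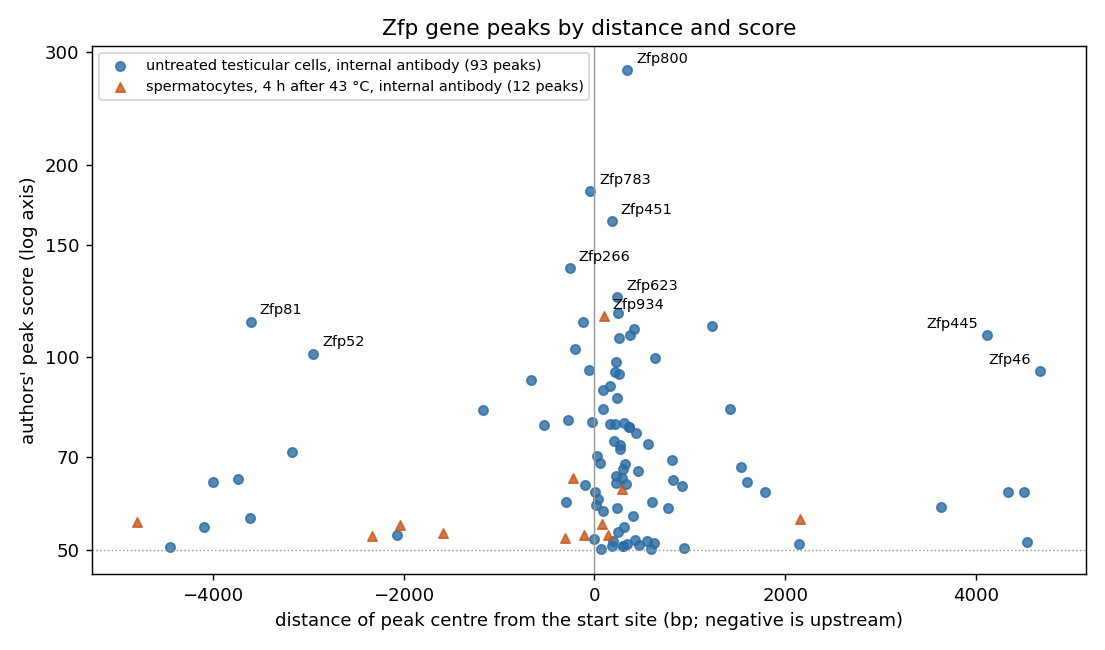
Authors' peak score (vertical axis, logarithmic) against distance of the peak centre from the start site in bp (horizontal axis, negative is upstream) for the 105 member peaks. Circles are the untreated testicular library, triangles are spermatocytes at 4 h after 43 °C, and the dotted line marks a score of 50; most peaks lie just downstream of the start site, with Zfp800 highest at 281.26.

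The member with the highest score was Zfp800, with 281.26 at chr6:28260892-28261620 in its first intron. In the list, 16 peaks within 5 kb of other protein-coding genes scored higher. Zfp783 followed with 182.12 at chr6:47942875-47943385 in its promoter. Zfp451, whose human counterpart is a SUMO ligase, had 163.2 at chr1:33814195-33814636 in its first exon, with a second, weak peak of 50.16 in the first intron. Each of these 3 peaks lay over the start site from which its distance was measured.

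Zfp266 had 137.86 in its promoter (chr9:20521527-20521834) and Zfp623 had 124.28 in its only intron (chr15:75940998-75941382). Zfp872 had 117.38 in its first intron, over a simple repeat. Zfp81 had 113.77 at -3603 bp, in an L1Md_A element, which is a young LINE-1 of the mouse. The peak of Zfp81 was the only one of the 15 highest that the authors' annotation put between genes.

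Zfp936 had 113.43 in its promoter and Zfp869 had 103.1, also in the promoter. Zfp91, whose human counterpart is a ubiquitin ligase, had 111.84 at +1235 bp, a place annotated to an intron of Gm44505. Zfp410, an activator known for driving Chd4, the helicase of the NuRD corepressor, had 110.84 in its first intron. Zfp24, needed for myelination in mice, had 108.27, likewise in its first intron. Zfp52 closed the 15 highest with 101.43 at -2950 bp, in an intron of 9330136K24Rik. With Zfp57 and Zfp445 above, these 15 members were spread over 10 chromosomes.

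The lowest top scores belonged to Zfp62 with 50.16, Zfp281, a pluripotency factor, with 50.48, and Zfp639 with 50.68. These lay at the floor of the list, since the lowest score of a peak within 5 kb of a protein-coding gene was 50.01.

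In the untreated list, peaks of members sat mainly just downstream of the start site. In that list the median distance was +244 bp, with quartiles of +12 and +462 bp, beside a median of +224 bp for all protein-coding genes. Within 1000 bp lay 71 of 93 peaks (76.3%, 66.4 to 84.5), beside 79.5% of all. The first 500 bp downstream held 48 (51.6%, 41.0 to 62.1), beside 50.9%, and the 500 bp upstream held 10 (10.8%, 5.28 to 18.9), beside 14.1%. The positions of member peaks were thus close to those of the list as a whole. In spermatocytes at 4 h the 12 member peaks had a median of -166 bp beside +245 bp for all, and 5 lay downstream (41.7%, 15.2 to 72.3), beside 68.4%.

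**Figure D3:**
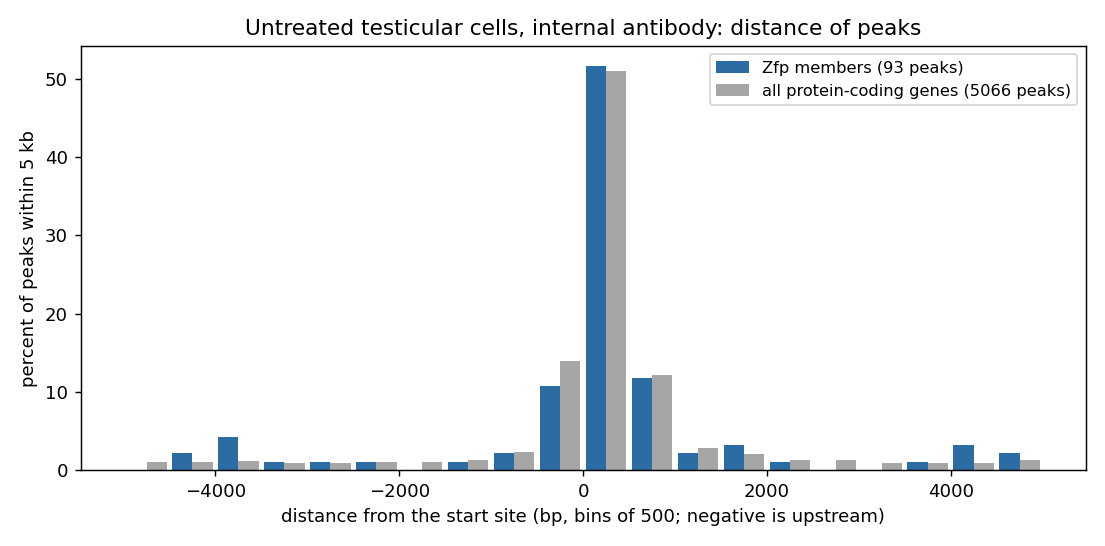
Percent of peaks within 5 kb (vertical axis) by distance from the start site in bins of 500 bp (horizontal axis, negative is upstream), in the untreated testicular library of the internal antibody. Blue bars are the 93 member peaks and grey bars the 5066 peaks of all protein-coding genes; both have their highest bar, at 51.6% and about 51.0%, in the first 500 bp downstream.

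By annotated place, introns took a larger part of member peaks in the untreated list. Of the 93 untreated peaks, 38 were in a first intron (40.9%, 30.8 to 51.5), beside 27.9% (26.6 to 29.1) of all protein-coding genes' peaks. All introns together held 43 (46.2%, 35.8 to 56.9), beside 31.3%. Exons held 9 (9.68%, 4.52 to 17.6), beside 17.8% (16.7 to 18.8), and 5′ untranslated exon sequence 4, which was 4.30% beside 8.33%. Promoters held 28 (30.1%, 21.0 to 40.5), beside 33.1%, intergenic sequence 8 (8.60%) beside 7.97%, and a transcript end 1. In spermatocytes at 4 h this was not seen: 3 of 12 peaks were in an intron, in each case the first (interval 5.49 to 57.2%), beside 25.4% of all in a first intron and 33.8% in any. There 5 of 12 were at a promoter (41.7%, 15.2 to 72.3), beside 24.2%. Over both libraries 33 of 105 peaks (31.4%, 22.7 to 41.2) were at a promoter, which by HOMER's usual definition runs from 1 kb upstream to 100 bp downstream of a start site. The lengths of first exons were not analysed here, and their part in the first-intron share was not tested.

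CpG islands were annotated under 23 of the 93 peaks (24.7%, 16.4 to 34.8), beside 18.8% of all. Repeats were annotated under 10 (10.8%, 5.28 to 18.9), beside 6.87%. Among member peaks these labels occurred only on peaks placed in introns or between genes, never at promoters or exons. At Zfp934 the untreated intron peak carried an LTR label, and the spermatocyte promoter peak that holds it carried none. These shares therefore do not count every peak over an island or repeat. The part of the larger intron share in them was not tested. Over both libraries 9 peaks at 8 members were labelled as lying in retroelements or SINEs. LTR elements were under peaks of Zfp2, Zfp39, Zfp180, Zfp382 and Zfp934, the L1 element under that of Zfp81, and SINEs under peaks of Zfp229 and Zfp617. Both peaks of Zfp229 were in the same B1 element.

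Of the 78 members in the untreated list, 63 had 1 peak and 15 had 2. In 10 of these 15 pairs the peaks were at most 500 bp apart, as at Zfp942 with a gap of 9 bp and Zfp68 with a gap of 21 bp. The widest gaps were 14664 bp at Zfp708, 8775 bp at Zfp46 and 8243 bp at Zfp174. Zfp46 had a peak of 50.57 upstream at -4449 bp and a stronger one of 95.2 in exon 3, its last, so that neither was at the start site.

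Some peaks assigned to a member were placed at another gene. This held for 11 of the 105 peaks, 6 of them in another gene's promoter. Zfp142 shared its peak with the promoter of Bcs1l, a mitochondrial assembly factor, Zfp189 with that of Mrpl50, a mitochondrial ribosomal protein, Zfp664 with Ccdc92 and Zfp277 with Dock4. Both peaks of Zfp942 were placed in the promoter of Zfp943, another member, which starts next to it. At such start sites the lists cannot tell which gene a peak belongs to.

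Of the 12 members in spermatocytes at 4 h after 43 °C, 6 were also in the untreated list (50.0%, 21.1 to 78.9), beside 303 of 713 protein-coding genes (42.5%, 38.8 to 46.2). Zfp934 had 50.74 in the untreated list and 116.08 in spermatocytes, at chr13:62558326-62558500 and chr13:62558319-62558688, so that the first peak lay wholly inside the second. Zfp131, which carries a BTB domain besides its fingers, had 95.65 and 52.87, with 187 bases shared. Zfp212 had 89.05 and 62.35, with 66 bases shared. Zfp229 had 51.06 and 55.93, with 128 bases shared.

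In the other 2 the peaks lay at different places. Zfp2 had 63.74 in its first intron in the untreated list and 53.18 at -1586 bp in an LTR element in spermatocytes, 1646 bp apart. Zfp407 had 77.75 and 51.34 in the untreated list and 52.16 in spermatocytes, at least 445 bp away. Overlapping peaks in both libraries were therefore found at 4 of the 84 members. Scores of these lists were not compared, because their depth is unknown.

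Of the 6 members seen only in spermatocytes at 4 h, 5 had scores below the median of 58.0 for all protein-coding genes' peaks in that list. Zfp568 was above it with 64.9 at chr7:29983626-29983833 in its promoter. Zfp384, a nuclear matrix protein, had 55.27 at -4790 bp, Zfp558 had 54.9 in its promoter and Zfp865 had 54.76 at -2038 bp, inside the last exon of its neighbour Zfp524. Zfp960 had 52.85 in its first intron and Zfp775 had 52.69 at -2335 bp. The untreated spermatocyte library and those at 43 °C with no recovery or 2 h of it had no background-free peak within 5 kb of any Zfp gene. These lists held only 1682 to 1783 peaks, so that an effect of heat or recovery and one of list length cannot be told apart.

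With successive positions at most 500 kb apart, 34 of the 84 members (40.5%) fell into 11 clusters, most of which also held Zfp genes without a peak. Positions were start sites for genes with a window in the sequence table. For the others, the centre of the highest-scoring peak was used for members and the middle of the gene for non-members. Each span ran from the first to the last member, so the genes at both ends were members by the way it was drawn. This raises the share of members within a span. Of all members 53 (63.1%, 51.9 to 73.4) had another Zfp gene within 500 kb, beside 183 of 265 Zfp genes that were not members (69.1%, 63.1 to 74.6). The files do not say how reads that match several similar copies were placed, and the reads are FVB/N while the assembly is from C57BL/6J, so assignment within a cluster is uncertain.

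**Figure D4:**
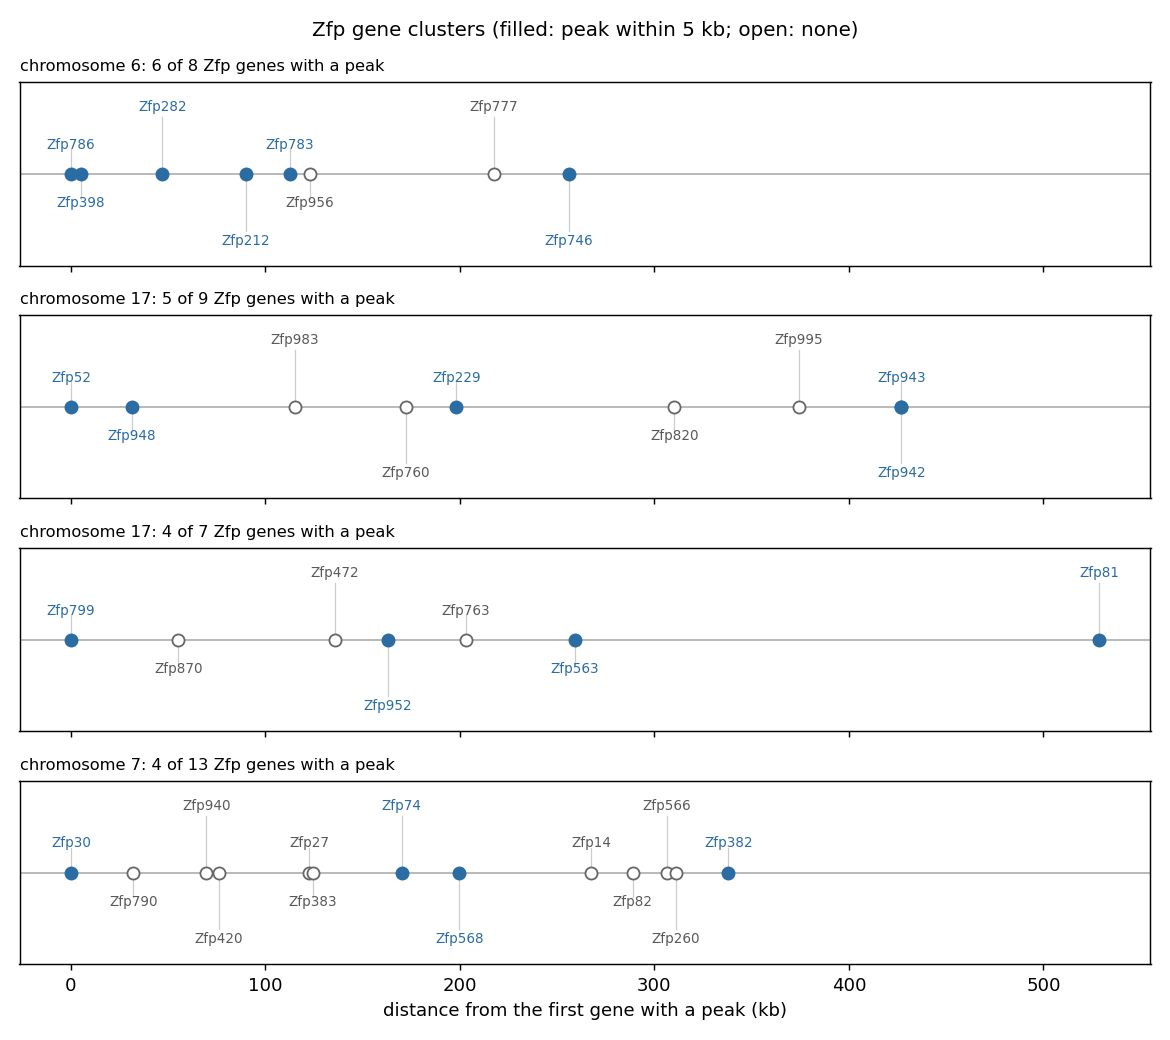
Zfp genes of the 4 clusters with the most members, drawn by distance in kb from the first to the last member of each (horizontal axis). Filled circles are genes with a background-free peak within 5 kb and open circles are Zfp genes without; the cluster on chromosome 6 has 6 of 8 filled and that on chromosome 7 has 4 of 13.

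The cluster with the most members was on chromosome 6, where 6 of the 8 Zfp genes within 256 kb had a peak. Zfp786 had 78.86, Zfp398 had 73.06 and 59.48, and Zfp282 had 56.5, all in the first intron. Zfp212 and Zfp783 had 89.05 and 182.12 in the promoter, and Zfp746 had 90.19 in the first exon. Zfp956 and Zfp777, which lie among them, had no peak within 5 kb, although Zfp777 had one of 63.16 in its last exon.

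On chromosome 17 a cluster of 427 kb had 5 members among 9 Zfp genes. Zfp52 had 101.43, Zfp948 had 58.87 and Zfp229 had 51.06 in the untreated list. The neighbours Zfp942 and Zfp943 had 94.17, 70.21 and 57.49 in a row over their shared start region, chr17:21962079-21962736. The next cluster on the same chromosome spanned 529 kb with 4 members of 7. There Zfp799 had 94.86, Zfp952 had 53.39 and Zfp563 had 50.77, all in the first intron, and Zfp81 had 51.61 in the first intron besides its upstream peak.

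A cluster on chromosome 7 was equal in number, with 4 members among 13 Zfp genes in 338 kb. Zfp30 had 92.36 and 79.92 in its promoter, Zfp74 had 52.78 and Zfp382 had 56.22 upstream, and Zfp568 had its peak in spermatocytes. On chromosome 9 a span of 71.4 kb held 3 Zfp genes, all members: Zfp872, Zfp809 with 51.16 and Zfp599 with 78.02, each in the first intron. Zfp810, which lies outside this span on the same chromosome, was not a member.

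By chromosome, the share of Zfp genes that were members ran from 0 of 5 on chromosome 10 to 3 of 4 on chromosome 1. On chromosome 6 it was 10 of 18 (55.6%, 30.8 to 78.5), beside 25.3% of all protein-coding genes there with a peak. On chromosome 17 it was 13 of 41 (31.7%, 18.1 to 48.1), beside 20.2%. On chromosome 7, which has the most Zfp genes, it was 15 of 91 (16.5%, 9.53 to 25.7), beside 15.0%. On chromosome 13 it was 5 of 33 (15.2%, 5.11 to 31.9), beside 29.7%, on chromosome 8 it was 5 of 25 (20.0%, 6.83 to 40.7), beside 21.4%, and on chromosome 2 it was 2 of 24 (8.33%, 1.03 to 27.0), beside 19.2%. On chromosome 9 it was 6 of 19 (31.6%, 12.6 to 56.6), beside 25.4%. Among all of chromosomes 1 to 19, chromosome 6 was the only one whose interval did not hold the share of all genes. Genes in a cluster are not independent of each other, and no test was made.

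The number of members depended on the limit of 5000 bp, which gave 84 genes with 105 peaks. A limit of 1000 bp gave 65 genes with 78 peaks, and one of 10000 bp gave 114 genes with 157 peaks. Just inside it were Zfp689 at +4496 bp with a score of 61.56, Zfp503 at +4536 bp with 51.55 and Zfp384 at -4790 bp with 55.27. Just outside were Zfp65 at +5059 bp with 69.56, Zfp420 at +5203 bp with 142.42 and Zfp459 at +5211 bp with 55.68. Zfp420 would have ranked among the highest members.

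Beyond 5 kb, 66 further background-free peaks were assigned to 27 of the members. The untreated list held 43 of them, spermatocytes at 4 h held 18 and the other 14 libraries 5. By place 46 were intergenic, 12 in introns, 7 in exons and 1 at a transcript end. The 5 of the other libraries were at Zfp808, with 2 peaks after 15 min at 43 °C, at Zfp689 in untreated spermatocytes, and at Zfp746 after 30 min at 43 °C in testicular cells and in spermatocytes. The last 2 lay at -81428 and -81409 bp and overlapped, at chr6:48167939-48168103 and chr6:48167925-48168079, with scores of 58.95 and 55.9.

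The last exon of such genes usually encodes the whole finger array. Taking every background-free peak that the annotation puts in an exon of a Zfp gene in the untreated list, whatever its distance, 23 of 36 were in the last exon (63.9%, 46.2 to 79.2), beside 689 of 2208 for all genes (31.2%, 29.3 to 33.2). Last exons of such genes are long, their lengths were not analysed here, and the part of length in this share was not tested. Over all libraries there were 26 last-exon peaks at 20 Zfp genes, 10 of them members, and only 6 of the 26 peaks lay within 5 kb of the start site they were assigned to.

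Zfp180 had 4 of these peaks. Exon 3, its last, had 3 peaks in the untreated list, with scores of 132.73, 82.41 and 69.62, side by side over chr7:24104574-24106108. Spermatocytes at 4 h had a peak of 56.07 there, chr7:24105470-24105762, which overlapped 2 of them. All 4 were assigned by distance to the start site of the neighbour Zfp112, and Zfp180 is a member through another peak of 58.4 at +3630 bp. Zfp697 followed with 107.02 in its last exon, Zfp46 with 95.2 and Zfp791 with 88.64 and 51.16.

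Peaks at background positions were left out, and near Zfp start sites there were 54 of them, at 4 genes. A peak at -2156 to -2101 bp from the start of Zfp143 was called in all 16 SPEN libraries with scores of 119.62 to 303.33, and in all 3 background libraries with 164.33 to 207.65. Zfp148 and Zfp263 had such a peak in 13 SPEN libraries each and Zfp598 in 12. The repeats annotated there were T-rich and B1 repeats at Zfp148 and, for part of the peaks, at Zfp263, and a ribosomal RNA repeat at Zfp598. Zfp143, which encodes an activator bound at many promoters, was the only one of the 4 that was also a member, through a separate peak of 79.1 in its first intron.

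At the start sites themselves, 68 protein-coding members and 220 other Zfp genes had a window in the sequence table, which is not complete. Each gene was counted with a single window, which need not be that of the start site at the peak. For Zfp37 the window counted here had 27 CG dinucleotides and 64.0% GC, and the one printed above 17 and 55.3%. The median number of CG dinucleotides in 300 bases was 15.5 (quartiles 10.0 and 23.0) for members and 13.0 (8.0 and 20.0) for the other Zfp genes. All genes with a peak had 21.0 (11 and 30.0) and all genes without one had 12.0. GC content had medians of 55.7%, 54.3%, 60.7% and 55.7% in the same order. The median of members lay between those of the other Zfp genes and of all genes with a peak, and the quartile range of members overlapped both. Another gene started head to head at 10 of the 68 members (14.7%, 7.28 to 25.4), beside 14.6% of all genes with a peak and 12.9% of all genes.

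**Figure D5:**
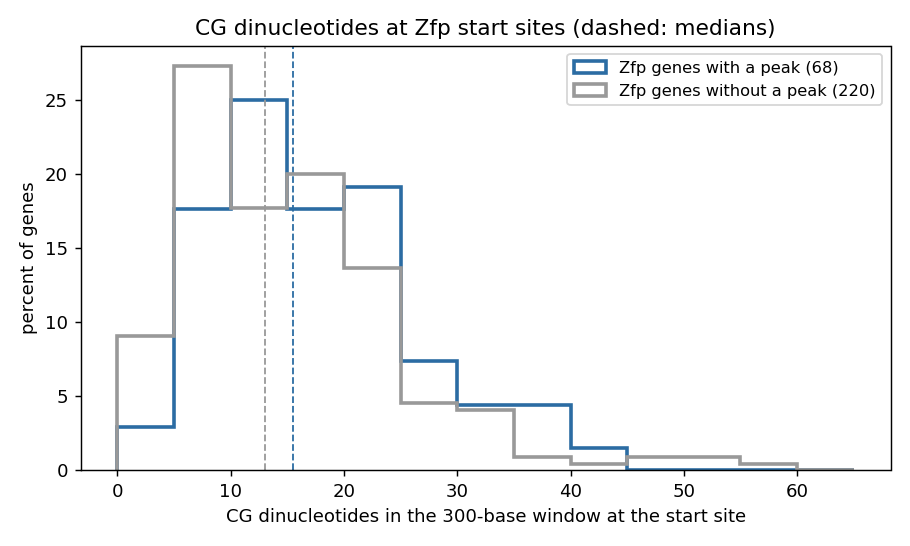
Percent of genes (vertical axis) by number of CG dinucleotides in the 300-base window at the start site (horizontal axis, bins of 5). Blue is 68 members and grey is 220 other Zfp genes, which include Zfp267 and Zfp974 with peaks under older names. Dashed lines are the medians of 15.5 and 13.0, and the distributions overlap over most of their range.

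Short motifs were counted on both strands of these windows, and matches of different motifs may overlap. CCAAT was in 50.0% of members (37.6 to 62.4) and 48.2% of the other Zfp genes, beside 38.9% of all 15988 windows. GGGCGG was in 52.9% (40.4 to 65.2), 40.5% and 48.2%. TGGGAA, the core that RBPJ binds, was in 17 of 68 members (interval 15.3 to 37.0%), 35.0% and 24.0%. GAANNTTC, a pair of inverted GAA units as in a heat shock element, was in 11.8% (5.22 to 21.9), 7.73% and 7.14%. AAGATGGC, the core of the YY1 motif, was in 10.3% (4.24 to 20.1), 4.55% and 3.26%, and TATAAA in 7.35% (2.43 to 16.3), 5.45% and 13.3%. Among all 3794 genes with a peak, CCAAT was in 37.5%, GGGCGG in 60.7% and TGGGAA in 21.8%. GAANNTTC was there in 5.72%, AAGATGGC in 4.24% and TATAAA in 8.91%. For each motif the interval of the members held the share of the other Zfp genes, with AAGATGGC at 7 of 68 members the farthest from all windows in ratio; the motifs were picked with the data at hand. A match describes letters in the window and does not show that a factor binds there.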

How the data were processed

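The authors called peaks in each of the 19 libraries on its own; MACS appears in the peak names, per the file headers, which also name HOMER as the annotation tool. Bowtie2, SAMtools and build mm10 are named, with no roles, per the submitters' processing notes. No version, peak threshold or control sample is stated. The deposited score per peak is the authors' value. Genes, distances and places are the authors' deposited annotation. Read depth is unknown for every library. Peaks shared a position when they had at least 1 base in common.

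Genes were matched by symbol to the RefSeq table of GRCm38.p6, where all 84 were found. Shares carry exact Clopper-Pearson 95% intervals, and the limit for a count of 0 is 3 counts. With 1 library per condition no test was made. Named are members with a peak outside the untreated internal-antibody list, the 15 highest and 3 lowest scores, the largest clusters (3, or 4 with a tie) and the genes next to the distance limit; genes of last exons, shared promoters and repeats were named after their values were seen. The members, lists and motifs were chosen with earlier results of these data known. Overlap, name and cluster code was tested on simulated data. Python 3.11.15, pandas 2.3.3, numpy 2.4.6 and SciPy 1.17.1 were used. Alternatives were other distances, background rules, scores, list lengths and cluster gaps. Protein sequences were not analysed here.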

Additional observations from a re-analysis of the deposited data

How the results depend on the processing

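Of 39 alternatives over these results, 22 stayed within 1.5 times the reported count or within its interval and 17 did not. A distance limit of 1000 bp gave 18.7% of Zfp genes with a peak and one of 10000 bp gave 32.1%. A score of at least 100 left 16 genes with 16 peaks (4.37%), and the 1000 highest-scoring peaks of each library left 1 gene with 1 peak (0.292%). Without the untreated library of the internal antibody 12 genes with 12 peaks remained (3.50%), and 0 members were in 2 or more libraries instead of 6. A limit of 10000 bp raised that number to 13 and keeping background peaks raised it to 10. Keeping background peaks also gave 159 peaks and lowered the share at promoters to 20.8%, and counting everything within 1000 bp as promoter raised it to 74.3%. Counts of clustered members, overlapping peaks and median scores moved less. Counting genes by gene ID (24.8%) and each gene once in the last-exon share (66.7%) were chosen after seeing the data. Unknown depth limits every comparison of list lengths. No paired analysis was possible because each condition has 1 library.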
